A study of Pinus pinaster with 36 samples.

Results

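The transcripts described here were found in the stem and the roots of seedlings of Pinus pinaster, the maritime pine, and were at or near 0 in needles. They are 200 of the 224081 transcript identifiers measured. A transcript qualified if its mean level lay below 500 CPM (a count scaled to a fixed library total) in stem and in roots, if these means lay within 4-fold of each other, and if its needle mean was below 1/32 of both. The rule was met by 7107 transcripts, 3.17% of all, and the 200 with the highest smaller mean of stem and roots were kept. The members were thus chosen by their mean CPM in the 3 organs, so the differences between organs are given as a description, without a test.

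RNA was sequenced from needles, stem and roots of seedlings of the Segura-Alcaraz provenance, aged 2 months. For 1 month they had been watered each week with 40 mL of 8 mM NH4Cl or 8 mM KNO3, in air with 400 or 720 ppm CO2. The groups in each organ were therefore ammonium at 400 ppm, ammonium at 720 ppm, nitrate at 400 ppm and nitrate at 720 ppm, with 3 libraries each and 36 libraries in all. A library came from a pool of 12 seedlings, and the 3 organs of a pool gave a library each, so that plants within a pool were averaged. Every group received a nitrogen salt, and none served as an untreated control. Nitrogen form cannot be told apart from the chloride or potassium given with it, nor CO2 from the growth chamber that held it.

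Needles are the photosynthetic organ of a pine, whereas stem and roots form a continuous axis of conducting tissue, with wood, bast and protective outer layers. Roots take up ammonium and nitrate from the soil, and much of the ammonium is built into amino acids there before it moves up the stem. Conifers, pines among them, often grow well on ammonium. The deposited table pairs no identifier with a gene name, a function or a sequence, so the members are given by identifier, and whether they belong to wood, bark, transport or any other process was not analysed here. Organ identity could likewise not be checked against marker genes.

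Library totals ran from 73414247 to 134836160 counts. In 7 libraries even values made up over 65% of the counts above 20 and many identifiers were at 0; they are called low-complexity libraries here. In stem they were both replicate 1 and replicate 2 of ammonium at 400 ppm, as well as replicate 1 of nitrate at 720 ppm. In needles they were replicate 2 of ammonium at 400 ppm, replicate 3 of ammonium at 720 ppm and the first 2 replicates of nitrate at 400 ppm. Roots had none.

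The members formed a set of mostly low-abundance transcripts with a few abundant ones. The smaller of the stem and root means ran from 1.43 to 149.3 CPM, with a median of 3.96 CPM. It reached 10 CPM for 47 members, 50 CPM for 9 and 100 CPM for 3, and lay below 5 CPM for 118. Median levels over the members were 4.62 CPM in stem, 6.28 CPM in roots and 0.0581 CPM in needles. These levels are per library total and not per transcript length, so they do not rank the members by number of molecules.

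PpCO2_116533 had the highest smaller mean. Its level in stem ran from 114.3 to 193.5 CPM with a median of 147.1 CPM, and in roots from 110.0 to 345.7 CPM with a median of 177.9 CPM, while its highest needle library stood at 0.828 CPM. PpCO2_75850 came next, with 93.4 to 160.7 CPM in stem (median 124.8 CPM), 61.5 to 179.9 CPM in roots (median 117.8 CPM) and at most 2.07 CPM in needles. For both, stem and root ranges overlapped and every needle library lay far below them.

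**Figure D1:**
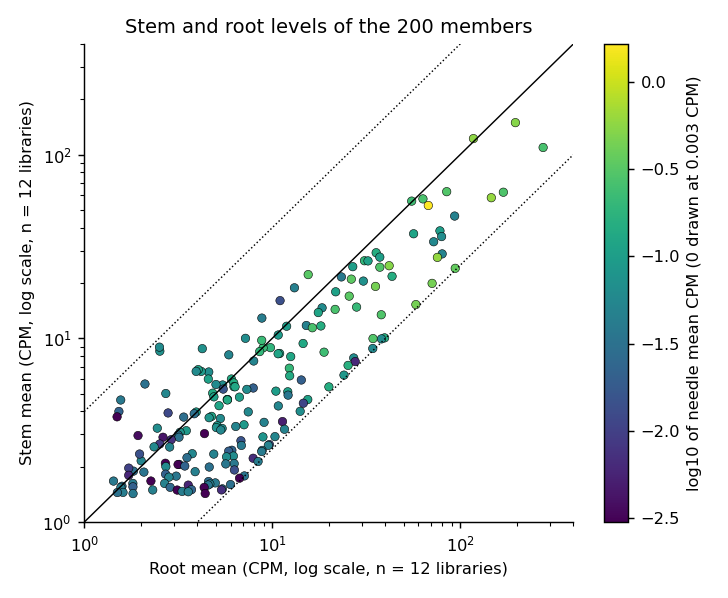
Mean level of each of the 200 members in roots (x axis, CPM, log scale) and stem (y axis, CPM, log scale), over 12 libraries each, with the needle mean as colour (log10 of CPM). The solid line marks equal levels and the dotted lines the 4-fold limits of the rule; 160 members lie below the solid line, higher in roots, and 40 above it.

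Although the rule asked only for similar levels in stem and roots, the balance leaned to the roots. Of the 200 members, 160 were higher in roots and 40 in stem, and the median ratio of stem to root was 0.668. It was within 2-fold for 122 members, while 71 were over 2-fold higher in roots and 7 over 2-fold higher in stem. PpCO2_89975 had the highest ratio, 3.56, with means of 8.96 CPM in stem and 2.51 CPM in roots. At the other end, PpCO2_5876 had a ratio of 0.251, with 1.78 CPM in stem and 7.11 CPM in roots, and so lay just inside the 4-fold limit. Just outside it, at 4.00-fold, was PpCO2_14712. The last member kept, PpCO2_70219, had a smaller mean of 1.429 CPM, and the first left out, PpCO2_181400, one of 1.427 CPM. At the needle limit, PpCO2_113574 was inside with a ratio of 32.1 and PpCO2_44418 outside with 31.9. The ceiling of 500 CPM excluded 2 transcripts that met the other conditions.

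Absence from needles was close but seldom complete. Only 4 members (PpCO2_50661, PpCO2_90852, PpCO2_31195 and PpCO2_85269) had 0 counts in all 12 needle libraries. Against a limit of 3 counts over those libraries, 0.00275 CPM, their smaller mean of stem and roots was at least 747-, 629-, 561- and 543-fold higher. By contrast, 17 members had counts in all 12 needle libraries, and PpCO2_25100 had the highest needle mean, 1.64 CPM or 1830 counts. The median member had 63 counts over the 12 needle libraries and was found in 8 of them. The smaller mean was a median of 63.4 times the needle mean, over 64 times for 101 members. For 183 members the highest needle library lay below every stem and root library. The rule chose the members by these same levels, so this separation was largely set by it and is a description only. Such counting limits cover counting error only.

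The number of members at 0 in a needle library moved with library complexity. It was 107 to 156 in the 4 low-complexity needle libraries and 23 to 91 in the other 8, against 0 to 5 in stem libraries and 0 to 1 in root libraries. A 0 in a needle library therefore did not separate an absent transcript from one missed at that complexity. A filter on low counts applied to the 12 needle libraries kept 91 of the 200 members, so treatment responses in needles were not tested for the set. In these whole-organ samples, fewer cells that make a transcript and less RNA per cell cannot be told apart.

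Summed over the 200 members, needle libraries stood at 15.4 to 27.6 CPM, stem libraries at 1841 to 2409 CPM and root libraries at 2996 to 4733 CPM. In roots the sum separated the nitrogen forms. With ammonium at 400 ppm it was 4553, 4596 and 4733 CPM, and with nitrate 3027, 3417 and 3074 CPM. At 720 ppm it was 3621, 4144 and 4212 CPM with ammonium and 3138, 3001 and 2996 CPM with nitrate. All 6 ammonium roots lay above all 6 nitrate roots, at means of 4310 ± 408 and 3109 ± 160 CPM (SD, n = 6). Without the 3 most abundant members the means were 3583 ± 302 and 2654 ± 134 CPM, and the ranges again did not overlap. In stem the sums overlapped, with 1901 to 2325 CPM for ammonium and 1841 to 2409 CPM for nitrate. No test is given for these sums, because the members were chosen with earlier results of these data known.

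**Figure D2:**
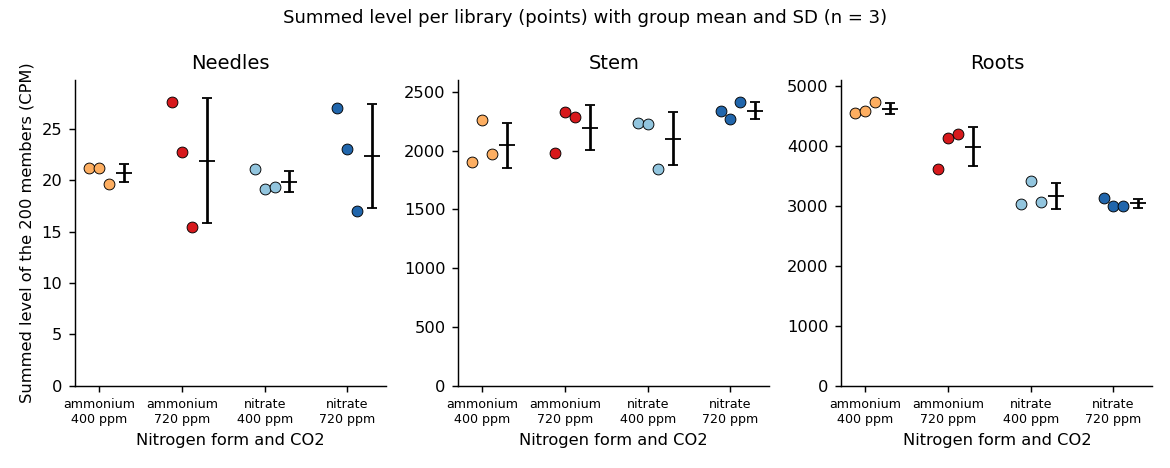
Summed level of the 200 members in each library (y axis, CPM, starting at 0 on a separate scale per organ), by nitrogen form and CO2; points are the 3 libraries of a group, and the bar beside them is the mean with its SD. In roots the 6 ammonium libraries, at 3621 to 4733 CPM, lie above the 6 nitrate libraries, at 2996 to 3417 CPM, and in stem the groups overlap.

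Members often carried neighbouring identifier numbers. The 200 members fell into 135 runs of consecutive numbers, and 99 of them (49.5%) lay in the 34 runs of at least 2. Of all 7107 transcripts that met the rule, 23.7% had such a neighbour. The longest run, PpCO2_161319 to PpCO2_161326, held 8 members with means of 7.96 to 24.4 CPM in stem and 10.7 to 37.4 CPM in roots. A run of 7 started at PpCO2_62875 (20.5 to 38.5 CPM in stem, 26.8 to 80.2 CPM in roots) and a run of 6 at PpCO2_101730 (5.37 to 29.2 and 7.93 to 35.7 CPM). Of the 258 identifiers next to a run and not in the set, 43 (16.7%) met the rule at a lower level. How many genes the members stand for is not known, and the counts of members below are counts of identifiers.

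Libraries of a group differed more in stem than in roots. The median SD within a group on the log2(CPM + 0.1) scale was 0.44 in stem and 0.26 in roots, and it was larger in stem for 175 members. Over all identifiers at or above the lowest member's level it was 0.26 in stem (56979 identifiers) and 0.19 in roots (59520). Without the low-complexity libraries the stem value for the members was 0.33. In roots the smallest spread belonged to PpCO2_161322, a member of the longest run. Its root levels were 32.9, 36.2 and 31.7 CPM with ammonium at 400 ppm, 31.0, 34.5 and 31.1 CPM with ammonium at 720 ppm, 23.3, 22.8 and 24.3 CPM with nitrate at 400 ppm and 25.0, 22.2 and 22.2 CPM with nitrate at 720 ppm. All ammonium roots lay above all nitrate roots.

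Which members respond to nitrogen form or CO2 was asked separately for stem and roots, by edgeR's quasi-likelihood test on the 12 libraries of the organ. Calls are at a Benjamini-Hochberg adjusted p under 0.05 over all transcripts tested in the organ (156123 in roots, 137689 in stem), and all 200 members were tested in both organs. The rule averaged over treatments, so it did not use these contrasts.

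In roots, a large share of the set was higher with ammonium than with nitrate. At 400 ppm, 67 members (33.5%) were higher and 18 (9%) lower. Of all transcripts tested, 2.5% were higher and 5.47% lower, and among the 59487 with a root mean at or above the lowest member these shares were 4.92% and 8.46%. Higher members thus stood well above the background, and lower members close to it. The median log2 fold change of the members was 0.41, against -0.01 for all transcripts and -0.03 for those of at least the members' level. A positive change, called or not, was seen for 144 members (72%) and for 49.2% of all transcripts. More than a 2-fold difference was reached by 26 of the higher and 13 of the lower members. The share of all transcripts past 2-fold is not given here, so these 2 counts have no background beside them.

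At 720 ppm, 48 members (24%) were higher and 17 (8.5%) lower with ammonium, against 2.09% and 4.09% of all transcripts and 3.05% and 5.87% of those at the members' level. The median log2 fold change was 0.39 for the members and -0.01 for all transcripts. Here 12 higher and 9 lower members passed 2-fold, again without a share of all transcripts to set beside them. Calls numbered 65 in all, and 38 when either replicate 2 or replicate 3 of ammonium at 720 ppm was left out, or 36 when replicate 2 of nitrate was.

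The comparisons at the 2 CO2 levels share no root library, and their calls overlapped. Both were taken from the same fit of the 12 root libraries, with a shared estimate of the spread, so the 2 lists are not independent. Higher at both levels were 43 members, which is 64.2% of those higher at 400 ppm and 89.6% of those higher at 720 ppm. Lower at both were 11, or 61.1% and 64.7% of the respective lists, and 0 were called in opposite directions. The same overlap over all transcripts is not given here, so these counts do not show whether it is particular to the members. Over both levels, 96 members were called at least once and 104 at neither. The 43 lay in 23 runs of identifiers and the 11 in 9, so neither direction was confined to a single run. Of the 43, 32 were in runs of 2 or more, and of the 11, 5 were. Runs hold strictly consecutive numbers, and 132 members lay within 10 numbers of another member. Whether separate runs stand for separate genes is not known, so the run counts do not show how many genes carried the direction. Of the 43, 12 were among the members more abundant in stem and 31 among those more abundant in roots. The abundant members were well represented: of the 47 with at least 10 CPM in both organs, 28 were higher and 2 lower with ammonium at 400 ppm, and 20 were higher and 1 lower at 720 ppm. Of the 17068 transcripts of at least 10 CPM in both organs, 5.14% were higher and 8.42% lower at 400 ppm, and 3.46% and 4.28% at 720 ppm.

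**Figure D3:**
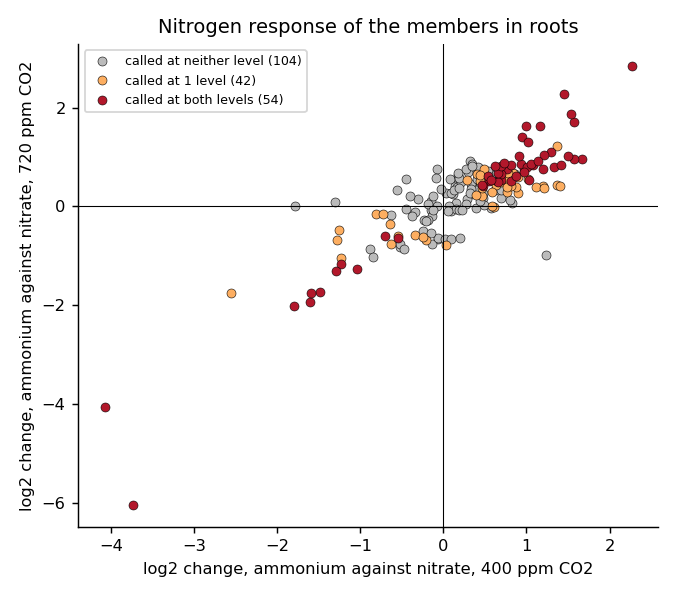
Log2 fold change of each member between ammonium and nitrate roots at 400 ppm CO2 (x axis) and at 720 ppm CO2 (y axis), coloured by the number of levels at which it was called. Calls at both levels number 54, of which 43 lie at upper right and 11 at lower left.

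PpCO2_29055 had the largest increase with ammonium at both levels among called members of at least 5 CPM, the limit for the rankings given here. In roots at 400 ppm it stood at 7.86, 11.1 and 8.91 CPM with ammonium and 2.01, 1.83 and 1.73 CPM with nitrate. At 720 ppm it stood at 11.1, 6.04 and 6.57 CPM with ammonium and 1.54, 0.905 and 0.682 CPM with nitrate. Every ammonium root exceeded every nitrate root. The log2 fold changes were 2.27 (SE 0.286, adjusted p = 0.000463 by edgeR) and 2.85 (SE 0.295, adjusted p = 8.54e-05 by edgeR).

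PpCO2_157627 was the second at 400 ppm, with 17.2, 21.7 and 21.5 CPM with ammonium and 7.67, 5.51 and 5.10 CPM with nitrate, a log2 fold change of 1.67 (SE 0.250, adjusted p = 0.00195 by edgeR). Under that limit PpCO2_29059 was the second at 720 ppm, with 12.8, 10.3 and 11.0 CPM against 3.39, 2.97 and 2.63 CPM (log2 fold change 1.87, SE 0.167, adjusted p = 1.78e-05 by edgeR). Neither pair of groups overlapped. PpCO2_29059 stands 4 numbers from PpCO2_29055 and belongs to the run PpCO2_29058 to PpCO2_29060, whose 3 members were all higher with ammonium in roots at both levels.

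Among called members of at least 5 CPM without overlap of the groups, PpCO2_100395 had the largest decrease with ammonium at both levels. Larger decreases of members below 5 CPM were those of PpCO2_50661 (log2 fold changes -4.07 and -4.06 at 400 and 720 ppm), PpCO2_150853 (-3.74 and -6.04) and, at 400 ppm, PpCO2_22229 (-2.55). In roots PpCO2_100395 was at 9.42, 12.2 and 10.03 CPM with ammonium and 32.05, 48.7 and 25.0 CPM with nitrate at 400 ppm, and at 10.4, 8.41 and 10.1 CPM against 42.3, 30.1 and 41.4 CPM at 720 ppm. The nitrate roots were higher without overlap at both levels, and the log2 fold changes were -1.80 (SE 0.227, adjusted p = 0.000661 by edgeR) and -2.02 (SE 0.229, adjusted p = 0.000255 by edgeR). PpCO2_55371 came next under the same limits, with 8.30, 6.61 and 3.55 CPM against 19.1, 19.5 and 15.1 CPM at 400 ppm, and 6.93, 8.56 and 5.58 CPM against 22.5, 19.0 and 36.7 CPM at 720 ppm. Its log2 fold changes were -1.60 (SE 0.301, adjusted p = 0.009 by edgeR) and -1.93 (SE 0.303, adjusted p = 0.00322 by edgeR). These calls, and those of PpCO2_29055, PpCO2_157627 and PpCO2_29059 above, passed under all 17 alternatives run for each.

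The 3 members of at least 100 CPM in both organs were called higher with ammonium at 400 ppm, and 2 of them at 720 ppm. PpCO2_116533 was at 269.3, 303.5 and 345.7 CPM in ammonium roots and 150.1, 163.7 and 137.8 CPM in nitrate roots at 400 ppm, a log2 fold change of 0.98 (SE 0.125, adjusted p = 0.000402 by edgeR). At 720 ppm it was at 192.0, 218.3 and 220.4 CPM against 134.7, 110.0 and 114.4 CPM (log2 fold change 0.77, SE 0.124, adjusted p = 0.00214 by edgeR). Its groups did not overlap at either level. PpCO2_75850 had log2 fold changes of 0.94 and 0.85 (edgeR adjusted p = 0.00101 and 0.00179). PpCO2_126178, the member with the highest root mean, had 0.46 at 400 ppm (SE 0.125, adjusted p = 0.0373 by edgeR) and 0.21 at 720 ppm (SE 0.125, adjusted p = 0.426 by edgeR), which did not pass.

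Runs of neighbouring numbers often moved as a block or not at all. In the run of 8 from PpCO2_161319, all 8 were higher with ammonium at 400 ppm (log2 fold changes of 0.47 to 1.20) and 6 at 720 ppm (0.39 to 0.76 over the run). In the run of 7 from PpCO2_62875 these numbers were 6 and 3. In the run of 6 from PpCO2_101730 no member was called, although all 6 changes were positive, from 0.40 to 0.69 at 400 ppm and from 0.56 to 0.78 at 720 ppm. Of the 14 runs of at least 3, 5 had every member higher at 400 ppm and 4 had none called.

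For CO2 edgeR called few members in roots. With ammonium it called 0, where 0.00641% of all transcripts were called. An unadjusted p under 0.05 was found for 32 members (16%) and for 9.04% of all transcripts. DESeq2 called 6 members, all lower at 720 ppm, against 0.791% of all transcripts, and limma-voom called 0, against 0.0109%. The median log2 fold change was -0.13 for the members and 0.02 for all transcripts, and in the sums given above all 3 ammonium roots at 720 ppm lay below all 3 at 400 ppm. With nitrate, 1 member was called by edgeR, against 0.703% of all transcripts, and DESeq2 called 11, against 1.82%. An unadjusted p under 0.05 was found for 30 members (15%) and 6.25% of all transcripts, and the median log2 fold change of the members was -0.09.

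That member was PpCO2_29059, at 3.39, 2.97 and 2.63 CPM at 720 ppm and 6.56, 4.16 and 4.92 CPM at 400 ppm. The groups did not overlap, and the log2 fold change was -0.81 (SE 0.166, adjusted p = 0.0402 by edgeR). The call was lost in 9 of 17 alternatives. These were limma-voom (adjusted p = 0.170) and the fits without replicate 1 (0.190) or 3 (0.0810) of nitrate at 400 ppm, replicate 1 (0.0563), 2 (0.143) or 3 (0.180) of nitrate at 720 ppm, replicate 2 (0.0667) of ammonium at 400 ppm, and replicate 2 (0.0520) or 3 (0.0503) of ammonium at 720 ppm. The interaction of nitrogen form and CO2, tested with edgeR, called 0 members against 0.462% of all transcripts. An unadjusted p under 0.05 was found for 17 members (8.5%) and 6.74% of all transcripts. DESeq2 called 4 members, against 1.27% of all transcripts, and limma-voom 0, against 0%.

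In stem few members passed the test for nitrogen form. At 400 ppm edgeR called 1 higher (0.5%) and 1 lower (0.5%) with ammonium, where 0.0879% of all transcripts were called in either direction. At 720 ppm it called 1 higher (0.5%) and 3 lower (1.5%), where 0.0951% were. DESeq2 called 11 members at 400 ppm, against 0.358% of all transcripts, and 10 at 720 ppm, against 0.532%. An unadjusted p under 0.05 was more common, at 44 members (22%) at each level against 4.12% and 4.26% of all transcripts. At 400 ppm the median log2 fold change was 0.01 for the members and -0.10 for all transcripts, and at 720 ppm these medians were 0.03 and 0.05.

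PpCO2_29060 was the member higher in ammonium stem at both levels. It was at 25.2, 33.1 and 28.6 CPM with ammonium and 14.3, 16.1 and 13.2 CPM with nitrate at 400 ppm, and at 39.9, 25.0 and 33.8 CPM against 10.4, 14.0 and 13.1 CPM at 720 ppm. No nitrate stem reached an ammonium stem. The log2 fold changes were 0.97 (SE 0.167, adjusted p = 0.0448 by edgeR) and 1.42 (SE 0.168, adjusted p = 0.00273 by edgeR). The call at 720 ppm was kept throughout. That at 400 ppm was lost in 9 of 18 alternatives, with the replicate number as a block (0.0886), without the low-complexity libraries (0.163), and in the fits without replicate 2 (0.184) of ammonium at 400 ppm, replicate 3 (0.0999) of ammonium at 720 ppm, replicate 1 (0.154), 2 (0.114) or 3 (0.235) of nitrate at 400 ppm, and replicate 2 (0.0702) or 3 (0.0703) of nitrate at 720 ppm. In roots PpCO2_29060 was at 27.3, 26.4 and 23.4 CPM with ammonium and 8.72, 7.67 and 8.72 CPM with nitrate at 400 ppm.

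Its neighbours PpCO2_29055 and PpCO2_29059 had positive changes in stem that did not pass. PpCO2_29055 was at 5.61, 9.64 and 8.33 CPM in ammonium stem and 3.42, 2.92 and 1.30 CPM in nitrate stem at 400 ppm, without overlap, and its log2 fold change of 1.60 had an edgeR adjusted p of 0.256.

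PpCO2_18218 was the member lower in ammonium stem at both levels. It was at 7.20, 8.38 and 6.80 CPM with ammonium and 16.1, 14.3 and 14.2 CPM with nitrate at 400 ppm, and at 8.75, 9.23 and 7.92 CPM against 15.8, 15.5 and 15.4 CPM at 720 ppm. The groups were separate at both levels, with log2 fold changes of -1.02 (SE 0.133, adjusted p = 0.00462 by edgeR) and -0.81 (SE 0.133, adjusted p = 0.0315 by edgeR). Of 18 alternatives at 400 ppm, 1 lost the call (0.0697), the fit without the low-complexity libraries, which keeps 1 ammonium stem at 400 ppm and assumes that it varies like the other groups. At 720 ppm 8 alternatives lost it, the replicate number as a block (0.0561) and the fits without replicate 1 (0.179), 2 (0.0738) or 3 (0.268) of ammonium at 720 ppm, replicate 1 (0.109), 2 (0.186) or 3 (0.189) of nitrate at 720 ppm, or replicate 2 of nitrate at 400 ppm (0.0612).

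At 720 ppm PpCO2_91247 and PpCO2_100395 were lower too. PpCO2_91247 was at 2.61, 2.497 and 2.67 CPM with ammonium and 14.5, 7.04 and 6.90 CPM with nitrate, a log2 fold change of -1.82 (SE 0.313, adjusted p = 0.0441 by edgeR). PpCO2_100395 was at 15.2, 11.7 and 11.7 CPM against 41.8, 26.5 and 41.0 CPM (log2 fold change -1.47, SE 0.235, adjusted p = 0.0315 by edgeR), the same direction as in roots. Groups did not overlap for either.

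Both calls were lost when any of several single libraries was left out. PpCO2_91247 lost its call without ammonium 720 ppm replicate 1 (adjusted p = 0.152), 2 (0.219) or 3 (0.184), without nitrate 720 ppm replicate 1 (0.138) or 3 (0.0570), or, at 400 ppm, without ammonium replicate 3 (0.0511) or any nitrate replicate (0.0603, 0.0612 and 0.0610). Limma-voom (0.0678) and the replicate number as a block (0.0778) also lost it. PpCO2_100395 lost its call without ammonium 720 ppm replicate 1 (0.0874), 2 (0.228) or 3 (0.213), nitrate 720 ppm replicate 1 (0.151) or 3 (0.139), ammonium 400 ppm replicate 3 (0.0606) or the low-complexity libraries (0.200), with no filter on low counts (0.0506) and with the replicate number as a block (0.0811).

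CO2 gave no call among the members in stem by edgeR. The share of all transcripts called was 0% with ammonium, 0% with nitrate and 0% for the interaction. An unadjusted p under 0.05 was found for 27, 11 and 14 members in these comparisons (13.5%, 5.5% and 7%), against 5.76%, 2.59% and 3.08% of all transcripts. DESeq2 called 2, 0 and 1 members, against 0.283%, 0.115% and 0.0343% of all transcripts. Limma-voom called 1, 0 and 0, against 0.00654%, 0% and 0%.

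The nitrogen response itself was then compared between roots and stem, in a fit of the 24 stem and root libraries. For each transcript the mean over both CO2 levels of ammonium minus nitrate in stem was subtracted from the same mean in roots. The difference was called positive for 19 members (9.5%) and called negative for 0. Of the 177804 transcripts tested, 0.26% and 0.267% were called in these directions. Called or not, the difference was positive for 146 members (73%) and for 54.8% of all transcripts. Its median was 0.38 for the members and 0.07 for all transcripts on the log2 scale. With the seedling pool as a block the difference was called positive for 26 members and negative for 1. The shares of all transcripts above are those of the fit without a block, and none is given for the fit with it. Over both levels the 19 had a median change of 0.67 in roots and -0.19 in stem, where none of the 19 was called for nitrogen form. The 19 were picked by this difference, which favours high root and low stem changes, so both medians are a description. They lay in 13 runs, and 14 of them were among the 43 called higher in roots at both levels. For those 43, the median log2 fold changes were 0.97 and 0.83 in roots at 400 and 720 ppm, and 0.09 and 0.18 in stem. For the 11 members lower in roots at both levels the medians were -1.48 and -1.74 in roots and -1.18 and -1.26 in stem, and the stem changes of all 11 were negative at both levels. Both groups were picked by their root calls, so their root medians are a description. The difference between these 2 groups of members was not tested.

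**Figure D4:**
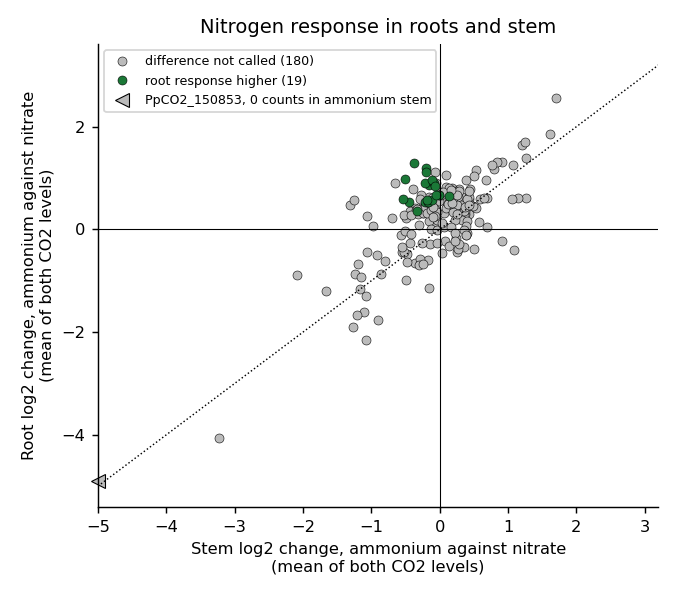
Log2 fold change of each member between ammonium and nitrate, as the mean of both CO2 levels, in stem (x axis) and roots (y axis); green points are the 19 members whose response was called different between the organs, and the dotted line marks equal responses. The 19 lie above the line, with root changes of 0.36 to 1.29. Their stem changes were -0.54 to 0.14, below 0 for 18 of them. They were picked by this difference, so their place above the line is largely set by that choice. PpCO2_150853, with 0 counts in the ammonium stem libraries, is a triangle at the left edge because its stem change has no defined size.

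PpCO2_96712 and PpCO2_106999 had the largest differences among those called with at least 5 CPM. In roots PpCO2_96712 was at 18.2, 21.7 and 17.0 CPM with ammonium and 7.58, 9.90 and 4.76 CPM with nitrate at 400 ppm, and at 13.8, 24.2 and 16.2 CPM against 7.36, 10.5 and 6.40 CPM at 720 ppm. In stem it was at 11.0, 10.2 and 8.76 CPM against 20.9, 17.3 and 14.6 CPM at 400 ppm, and at 25.0, 28.3 and 28.2 CPM against 20.9, 25.9 and 15.2 CPM at 720 ppm. Ammonium roots were thus above nitrate roots at both levels, whereas in stem the nitrate libraries were above at 400 ppm and the groups overlapped at 720 ppm. The root response exceeded the stem response by 1.42 (log2, SE 0.258, adjusted p = 0.00928 by edgeR).

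PpCO2_106999 showed the same order in roots, with 13.6, 17.1 and 15.2 CPM in ammonium and 6.43, 8.34 and 4.25 CPM in nitrate roots at 400 ppm. At that level stem stood at 11.6, 8.20 and 9.997 CPM with ammonium and 19.9, 14.6 and 9.81 CPM with nitrate, with overlap. At the higher CO2 level the stem means were 20.8 CPM with ammonium and 18.7 CPM with nitrate. The groups overlapped there too, and the log2 fold change in stem was 0.20, so ammonium stem was not lower at both levels. The difference of the responses was 1.34 (log2, SE 0.270, adjusted p = 0.0222 by edgeR). PpCO2_96712 lost its call without replicate 1 (0.233) or 3 (0.0554) of every group and without the low-complexity libraries (0.0939). PpCO2_106999 lost it without replicate 1 (0.129), 2 (0.230) or 3 (0.125) of every group and without the low-complexity libraries (0.198). The count of 19 was 9, 6 and 7 without replicates 1, 2 and 3 of every group.

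The CO2 response did not differ between roots and stem for any member by edgeR, where 0% of all transcripts were called. An unadjusted p under 0.05 was found for 40 members (20%) and 4.78% of all transcripts, and the median difference was -0.21 against 0.03. DESeq2 called 2 members, against 0.128% of all transcripts, and limma-voom 1, against 0.286%.

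Some members ranged widely between libraries. The highest library was a median of 2.56 times the lowest over the 12 root libraries and 3.21 times over the 12 stem libraries, and it was over 10 times the lowest, or the lowest was 0, for 11 members in roots and 23 in stem. These ranges include the treatment differences. Among the 11 are PpCO2_29055, PpCO2_55371, PpCO2_50661 and PpCO2_150853, each called for nitrogen form in roots. PpCO2_114281 had the largest spread within groups in roots. There it was at 9.28, 2.03 and 5.66 CPM with ammonium at 400 ppm, 2.21, 8.72 and 3.94 CPM with ammonium at 720 ppm, 0.208, 8.60 and 4.00 CPM with nitrate at 400 ppm and 3.98, 0.258 and 3.93 CPM with nitrate at 720 ppm. In stem the same pools stood at 3.04, 0.593 and 1.34 CPM, 0.603, 4.06 and 1.90 CPM, 0.0610, 2.02 and 1.15 CPM, and 1.22, 0.143 and 1.04 CPM. In all 4 groups the 3 pools had the same order in stem as in roots. The members PpCO2_114287 and PpCO2_114290, named after their values were seen, had the same low pools in both organs, nitrate 400 ppm replicate 1 and nitrate 720 ppm replicate 2. Neither nitrogen form nor CO2 gave a call for PpCO2_114281.

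**Figure D5:**
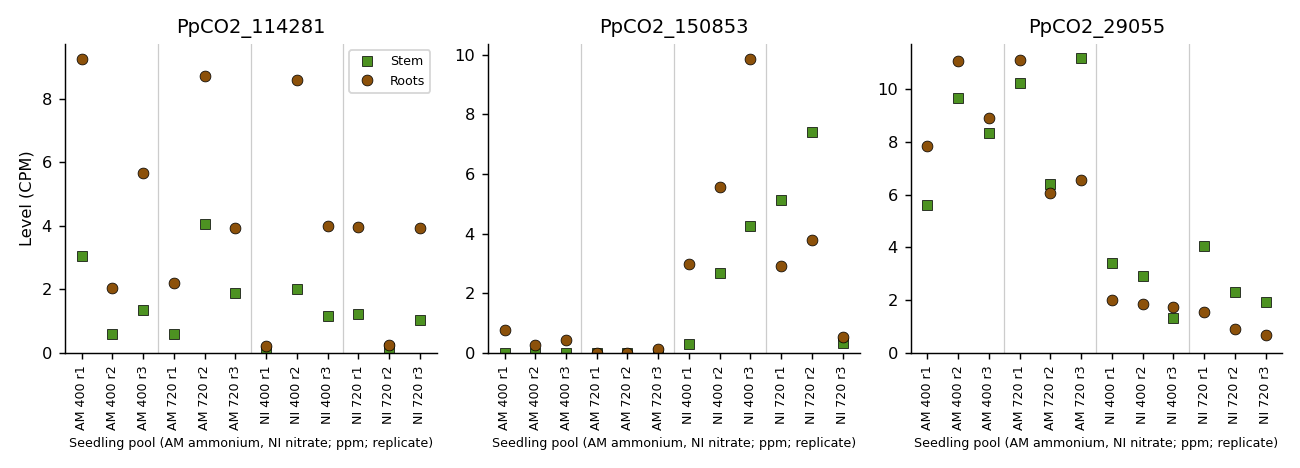
Level of 3 members (y axis, CPM, from 0) in stem (squares) and roots (circles) of each of the 12 seedling pools (x axis). PpCO2_114281 varies between pools alike in both organs. PpCO2_150853 is at 0 in the stem of ammonium pools, low in their roots and variable among nitrate pools. PpCO2_29055 is higher in ammonium pools in both organs.

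PpCO2_150853, also named after its values were seen, combined pool variation with nitrogen form. In stem it had 0 counts in all 6 ammonium libraries, against 0.293, 2.68 and 4.26 CPM with nitrate at 400 ppm and 5.12, 7.41 and 0.314 CPM at 720 ppm. Its nitrate mean was at least 608-fold higher than a limit of 3 counts over the ammonium libraries, yet the edgeR adjusted p was 0.469 at 400 ppm and 0.314 at 720 ppm. In roots it was at 0.761, 0.249 and 0.422 CPM with ammonium against 2.98, 5.55 and 9.87 CPM with nitrate at 400 ppm, and at 0, 0 and 0.121 CPM against 2.90, 3.77 and 0.541 CPM at 720 ppm. The root groups were separate at both levels, and both changes were called (edgeR adjusted p = 0.0321 and 0.0136). Nitrate 720 ppm replicate 3 was the lowest nitrate pool in roots, and in stem only nitrate 400 ppm replicate 1 was lower.

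PpCO2_50661, one of the members at 0 in every needle library, had the largest spread in stem and followed a similar order. In roots it stood at 1.06, 0.0793 and 0.385 CPM with ammonium and 5.58, 8.74 and 10.1 CPM with nitrate at 400 ppm (edgeR adjusted p = 0.0332), and at 0.0166, 0.369 and 0.351 CPM against 5.56, 4.48 and 1.16 CPM at 720 ppm (edgeR adjusted p = 0.0472). In stem the ammonium libraries at 400 ppm were at 0, 1.99 and 0.779 CPM and the nitrate libraries at 0.439, 1.69 and 5.40 CPM, which overlapped. Genotypes of the seedlings in a pool were not analysed here, so their part in these pool differences was not tested.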

How the data were processed

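The authors deposited 1 table of raw counts for the 36 RNA-seq libraries, with a row for each transcript identifier. The submitters' processing notes name bcl2fastq. Which aligner, counter and assembly were used is not given in the sources used here, so reads shared between similar transcripts may be split between identifiers. The labels' treatment text describes another experiment on roots, with other ammonium doses, and the extraction text names root RNA alone, so the groups were taken from sample titles, characteristics and the series design. Libraries of a group are biological replicates, per the labels.

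CPM are counts divided by the column total. Differences were tested in R 4.3.3 with edgeR 4.0.16 (filterByExpr with a minimum count of 10, TMM scaling, robust quasi-likelihood F-test, two-sided) on the 12 libraries of an organ, or the 24 of stem and roots, with a mean per group and Benjamini-Hochberg adjustment over all transcripts tested. DESeq2 1.42.0 and limma 3.58.1 served as alternatives. Other alternatives were DESeq2's size factors, no low-count filter, a 2-fold limit, a replicate block, each library left out in turn and no low-complexity libraries. The tests were also run on simulated counts, with the same spread set for every transcript and with independent libraries. These had neither low-complexity libraries nor a link between stem and roots of a pool, so the check does not cover either.

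Stem and roots of a pool come from the same seedlings, per the series design. Their deviations from the group means correlated across transcripts at 0.0536 to 0.265 over 12 pools. The median was 0.155, against -0.0783 for stem and roots of different pools of a group. Deviations from a group's own mean cancel out within the group, so the second value is tied to the first and is not an independent baseline. The main fit of stem and roots did not pair them.

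Named members are, per comparison, up to 2 higher and 2 lower with the largest change among those called, at a mean of at least 5 CPM and, within an organ, without overlap of the groups. Also named are those with the highest levels, at the thresholds and at the extremes of ratio and spread, and those in the longest run. Members and lists were chosen with earlier results of these data known.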

Additional observations from a re-analysis of the deposited data

Results flagged for a closer look

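The nitrogen response differed between roots and stem for 19 members by a test of the difference itself (edgeR, Benjamini-Hochberg adjusted p under 0.05), in each case larger in roots. The named ones are PpCO2_96712, with a difference of 1.42 on the log2 scale, and PpCO2_106999, with one of 1.34. That test did not pair the stem and roots of a pool, and the counts with the pool as a block are given above. Shares of all transcripts are given for the unpaired test alone, so counts of members from its alternatives have no background beside them. Of the 24 libraries in the unpaired test, 3 stem libraries were low-complexity ones. Without them 16 members had a larger response in roots and 1 in stem, and the 2 named differences no longer passed (adjusted p = 0.0939 and 0.198 by edgeR).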

How the results depend on the processing

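None of the 16 named results changed direction, and 9 kept their call under every alternative. DESeq2's size factors moved the median change of all transcripts by under 0.1 in every comparison. In roots, a limit of 2-fold left 39 calls of 85 at 400 ppm and 21 of 65 at 720 ppm for nitrogen form. No share of all transcripts is given for that limit. For CO2 with nitrate in roots, DESeq2 made 11 calls in place of 1, the unfiltered fit 2, and limma-voom or the 2-fold limit 0. DESeq2 called 6 members for CO2 with ammonium and 4 for the interaction, against 0. In stem the 2 calls at 400 ppm became 4 without the filter, 11 with DESeq2, and 1 without the low-complexity libraries or with the 2-fold limit; the 4 at 720 ppm became 10 with DESeq2. For CO2 with ammonium in stem, DESeq2 called 2 members, and limma-voom and the unfiltered fit 1 each, and DESeq2 called 1 for the interaction. The 19 organ differences became 33 with DESeq2 and 8 with the 2-fold limit, and for CO2 DESeq2 called 2 and limma-voom 1. No share of all transcripts is given for the 33 or the 8. Leaving out low-complexity libraries changed nothing in roots, which had none. A needle limit of 1/64 would keep 101 of the 200 members, and CPM by the TMM library size 137.

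Leaving out single libraries gave 57 to 95 calls for nitrogen form in roots at 400 ppm and 36 to 66 at 720 ppm, 0 to 5 for CO2 with nitrate, 0 to 1 for the interaction and 0 to 0 for CO2 with ammonium. In stem it gave 1 to 3 and 1 to 4 for nitrogen form, and 0 to 1 for CO2 with ammonium. Without a replicate number of every group, 6 to 9 organ differences were called. Membership shared 186 to 200 identifiers.

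Libraries of different treatments with the same replicate number correlated at -0.0674 to 0.127 in roots (median 0.0754, other numbers -0.0472) and -0.0990 to 0.189 in stem (0.0217 and -0.0184), so the numbers were not taken to pair them. The values for other numbers are not an independent baseline, because deviations from a group's own mean cancel out within the group. With the number as a replicate block, CO2 with nitrate in roots had 2 calls, and stem had 1 at each CO2 level for nitrogen form. With the seedling pool as a block, 26 members had a larger nitrogen response in roots and 1 in stem, with no share of all transcripts given. At a median of 3.96 CPM for the smaller organ mean, depth limits the lowest members most in needles.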
